A study of Mus musculus with 12 samples.

Results

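The annexins described here are 8 genes, Anxa1, Anxa2, Anxa3, Anxa4, Anxa5, Anxa6, Anxa7 and Anxa11, taken by symbol from the 54532 genes of the count table, and all 8 were present. They were measured by RNA sequencing in sorted cells of the fetal mouse ovary after the mother had received dexamethasone (dex), a synthetic glucocorticoid. Pregnant dams were injected intraperitoneally with 10 µg dex per gram of body weight, or with the same volume of saline, on each day from E12.5 to E15.5 (embryonic days), which is 4 injections, and ovaries were taken at E15.5. All groups were of the Tg(Pou5f1-EGFP)2Mnn strain, in which regulatory sequence of Oct4 (Pou5f1) drives GFP. Germ cells were sorted as OCT4-GFP positive and somatic cells as OCT4-GFP negative, which gave 4 groups of 3 libraries: germ cells with dex, germ cells with saline, somatic cells with dex and somatic cells with saline. The somatic sort was defined by the absence of GFP alone, so it held every other cell of the ovary, including supporting, stromal, endothelial and blood cells. Each library came from the pooled ovaries of several litters dosed separately, so differences between single embryos or litters were not measured.

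Annexins are cytosolic proteins that bind the inner face of membranes when calcium rises, through a conserved core that recognises acidic phospholipids such as phosphatidylserine. They take part in membrane repair, vesicle traffic and the linking of membranes to actin, and their differing N-terminal tails bind partners such as the S100 proteins. Annexin A1 is a classic glucocorticoid-induced protein of leukocytes and other cells, where it restrains cytosolic phospholipase A2 and acts outside the cell on formyl peptide receptors.

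The libraries held between 14658503 and 18245507 counts, so that 3 counts, taken as the floor of detection, stood for 0.169 to 0.201 CPM (the count as a share of its library, per 1000000 counts, scaled with TMM factors over the 12 libraries). Germ cell markers summed to between 2004 and 2396 CPM in the germ cell libraries. In the somatic libraries they summed to between 2.58 and 4.91 CPM with saline and to between 15.1 and 18.9 CPM with dex, mostly through Dazl. Stromal markers summed to between 19674 and 25681 CPM in somatic cells and to between 120.3 and 254.8 CPM in germ cells. Of 7 reference genes, the glucocorticoid receptor gene and textbook targets of the receptor, 5 rose in somatic cells with dex and 2, Per1 and Zbtb16, rose in germ cells.

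The annexins were mostly transcripts of somatic cells. With saline, all 8 members were called lower in germ cells than in somatic cells, where 42.9% of all genes tested were called lower in germ cells (edgeR quasi-likelihood test, Benjamini-Hochberg adjusted p at most 0.05). Anxa1 and Anxa3 had too few germ cell counts to pass the filter on low counts within germ cells. They entered this test through their somatic libraries, so the count bears on the other 6 members. The size of the difference split the members. Anxa1, Anxa2, Anxa3, Anxa5 and Anxa6 stood at 1.23% to 3.17% of their somatic mean, Anxa4 at 14.7%, and Anxa7 and Anxa11 at 52.4% and 62.1%. In bulk RNA of this kind, fewer cells of a type and less RNA per cell cannot be told apart.

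**Figure D1:**
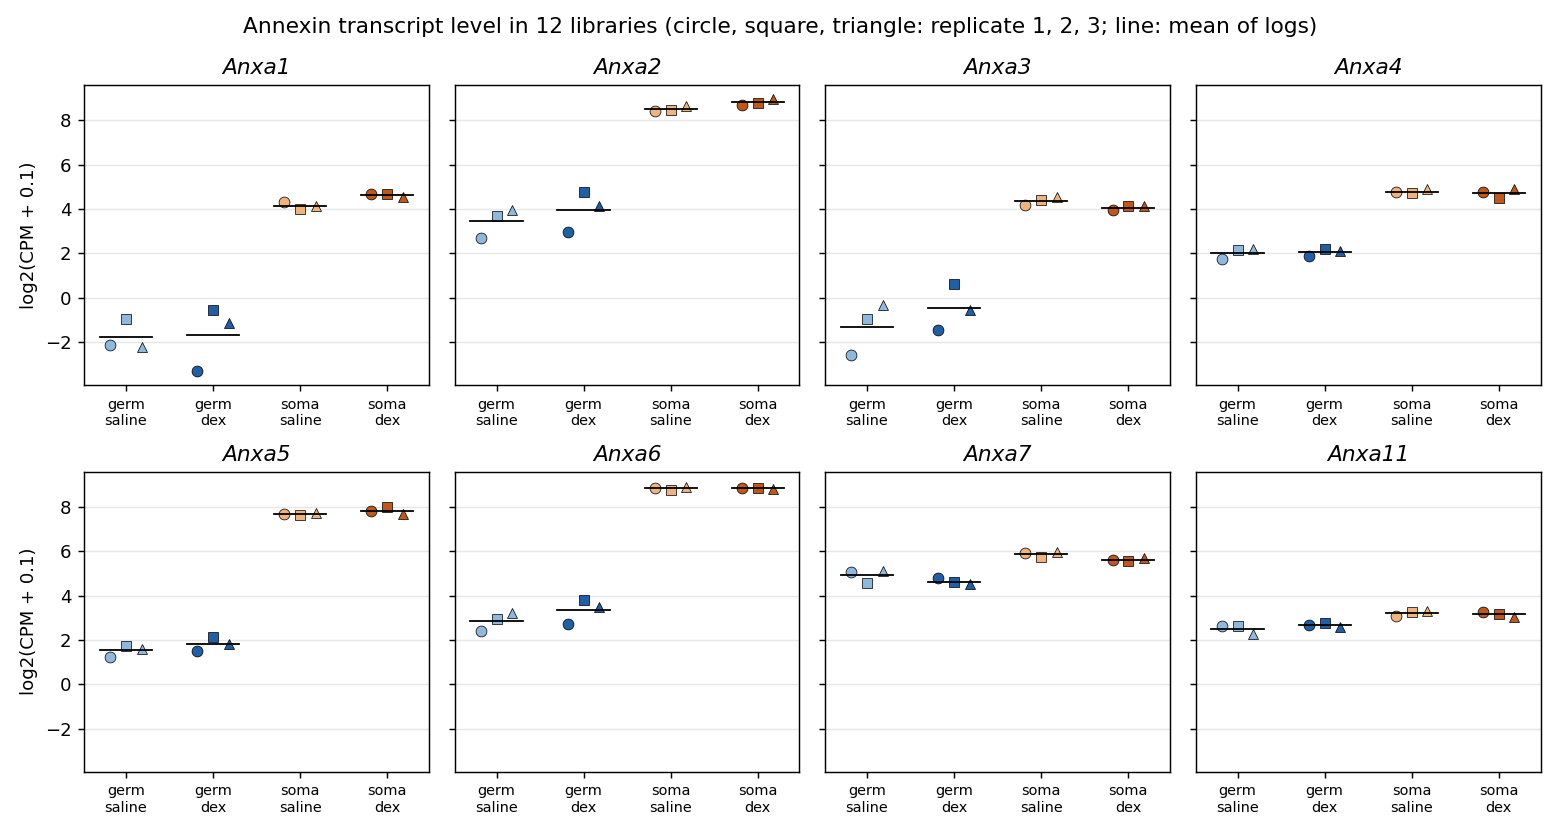
Level of each annexin as log2(CPM + 0.1) on the vertical axis in the 3 libraries of each of the 4 groups, with a line at the mean of the log values. All 8 genes lie lower in germ cells (blue) than in somatic cells (orange), by the widest margin for Anxa1, Anxa5 and Anxa6 and by the narrowest for Anxa7 and Anxa11.

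Anxa6, on chromosome 11 (54979108 to 55033445, minus strand, GRCm38), encodes the annexin with a duplicated core, which links membranes to the cytoskeleton and to cholesterol transport. Its saline libraries read 463, 437 and 475 CPM in somatic cells and 5.18, 7.53 and 9.33 CPM in germ cells, a difference of -5.94 on the log2 scale (SE 0.14, adjusted p = 2.51e-14, edgeR). Anxa5 (chromosome 3, 36448923 to 36475894, minus strand) encodes the phosphatidylserine binder used as a stain for dying cells. It read 206, 197 and 211 CPM in somatic cells and 2.26, 3.27 and 2.92 CPM in germ cells, a log2 difference of -6.16 (SE 0.11, adjusted p = 1.89e-15, edgeR). In both genes every somatic library was far above every germ cell library.

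Anxa2 (chromosome 9, 69453620 to 69491795, plus strand) encodes the annexin that pairs with S100A10 at the cell surface and there binds plasminogen and its activator. The saline libraries read 339, 348 and 397 CPM in somatic cells and 6.28, 12.7 and 15.4 CPM in germ cells, a log2 difference of -4.95 (SE 0.20, adjusted p = 6.17e-12, edgeR). Its germ cell libraries were more uneven than the somatic ones, with the first replicate lowest.

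Anxa1 (chromosome 19, 20373428 to 20390944, minus strand) and Anxa3 (chromosome 5, 96793339 to 96845966, plus strand), the latter best known from neutrophil granules, were near the floor in germ cells. Anxa1 had 2, 7 and 2 counts in the germ cell saline libraries and 0, 9 and 6 counts with dex. Anxa3 had 1, 7 and 12 counts with saline and 4, 22 and 10 with dex. In somatic cells with saline, Anxa1 read 19.7, 16.0 and 17.2 CPM and Anxa3 read 17.9, 20.8 and 23.0 CPM. The fitted log2 differences of germ from somatic cells were -6.27 for Anxa1 (SE 0.31, adjusted p = 5.15e-11) and -5.65 for Anxa3 (SE 0.32, adjusted p = 2.76e-10, edgeR), and both rest on a handful of germ cell counts.

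Anxa4, Anxa7 and Anxa11 were the members whose germ cell level stood highest relative to their somatic level. Anxa4 (chromosome 6, 86736840 to 86793584, minus strand), an annexin of epithelia that aggregates membranes, read 3.24, 4.32 and 4.52 CPM in germ cells and 26.8, 25.8 and 29.6 CPM in somatic cells with saline, a log2 difference of -2.75 (SE 0.16, adjusted p = 3.25e-10, edgeR). Anxa7 (chromosome 14, 20455260 to 20480133, minus strand), first described as a membrane fusion protein of secretory cells, read 33.6, 23.5 and 34.8 CPM in germ cells and 59.8, 53.0 and 62.7 CPM in somatic cells. Its log2 difference was -0.92 (SE 0.13, adjusted p = 7.67e-06, edgeR).

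Anxa11 (chromosome 14, 25842156 to 25886804, plus strand) encodes an annexin with a long N-terminal tail that tethers RNA granules to lysosomes. It read 6.02, 6.19 and 4.81 CPM in germ cells and 8.25, 9.43 and 9.72 CPM in somatic cells with saline. The log2 difference of -0.68 (SE 0.18, adjusted p = 0.00322, edgeR) was the smallest of the 8.

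Per unit of transcript length, as FPKM, somatic cells held 3 abundant annexins and 5 scarcer ones. With saline the means were 152 ± 6.82 FPKM for Anxa6, 112 ± 4.07 for Anxa5 and 93.8 ± 8.23 for Anxa2 (SD, n = 3), and the libraries of these 3 did not overlap each other. Anxa7 followed at 9.46 ± 0.823 FPKM. Anxa1 at 6.55 ± 0.718, Anxa4 at 5.72 ± 0.422 and Anxa3 at 5.47 ± 0.681 overlapped their neighbours in that order, and Anxa11 was lowest at 2.14 ± 0.179 FPKM. With dex the order was the same for Anxa6, Anxa5 and Anxa2, with Anxa5 and Anxa2 now overlapping, while Anxa1 at 9.03 ± 0.537 FPKM stood above Anxa7 at 7.92 ± 0.406.

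Germ cells had another order. With saline, Anxa7 led at 5.16 ± 1.08 FPKM, followed by Anxa2 at 3.10 ± 1.28, Anxa6 at 2.53 ± 0.733, Anxa5 at 1.60 ± 0.287 and Anxa11 at 1.38 ± 0.173 (SD, n = 3), and each of these overlapped the next. Anxa4 lay below them at 0.875 ± 0.153 FPKM. Anxa3 at 0.107 ± 0.0871 and Anxa1 at 0.0839 ± 0.0634 FPKM were lowest and overlapped. With dex, Anxa2 at 4.73 ± 2.67 and Anxa7 at 4.12 ± 0.326 FPKM exchanged places, and their libraries overlapped.

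A germ cell sort can carry some somatic RNA, so the germ cell levels were set beside markers of the somatic cell types, each as a percent of its somatic mean under the same treatment. Over the 6 germ cell libraries, Anxa5 ranged from 1.11% to 1.91%, Anxa6 from 1.13% to 3.04%, Anxa2 from 1.73% to 6.11%, Anxa1 from 0 to 2.39% and Anxa3 from 0.315% to 8.57%. The median marker ranged from 0.395% to 0.896% for stroma (8 genes), 0.395% to 1.62% for surface epithelium (8 genes), 1.11% to 2.16% for perivascular cells (7 genes), 1.80% to 4.24% for endothelium (8 genes), 3.22% to 12.6% for pregranulosa cells (8 genes) and 3.49% to 15.4% for macrophages (10 genes). For blood cells it ranged from 0.0934% to 0.774% for the erythroid list (6 genes) and from 0 to 3.04% for granulocytes and monocytes (2 genes). These were S100a8 and S100a9, since each other gene of that list averaged under 1 CPM in at least 1 somatic group. The ranges of all 5 low annexins overlapped those of perivascular cells, endothelium, and granulocytes and monocytes. The ranges of Anxa2, Anxa5 and Anxa6 lay above those of stroma and the erythroid list, and that of Anxa2 above surface epithelium as well. The ranges of Anxa1, Anxa5 and Anxa6 lay below those of pregranulosa cells and macrophages. Anxa4, at 11.8% to 17.3%, Anxa7, at 40.1% to 59.5%, and Anxa11, at 52.6% to 76.6%, lay above every one of these marker medians within each germ cell library. The medians hide single genes. By group means, Pecam1, Cdh5, Tek, Mrc1 and Tagln exceeded Anxa4 as a share of the somatic level under both treatments. Foxl2, Cx3cr1 and Cd68 did so with dex only. The other genes of the somatic lists stood lower than Anxa4. With dex, Mrc1 averaged 33.9 CPM in the germ cell sort against 34.4 CPM in the somatic sort, a share above all 3 annexins. Tek averaged more in the germ cell sort than in the somatic sort. It stood at 27.5 against 12.4 CPM with saline and at 29.3 against 9.11 CPM with dex. The share of Tagln, at 1.42 against 2.22 CPM, was above all 3 annexins with saline. How much of the germ cell signal of any member came from somatic cells in the sort was not tested.

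**Figure D2:**
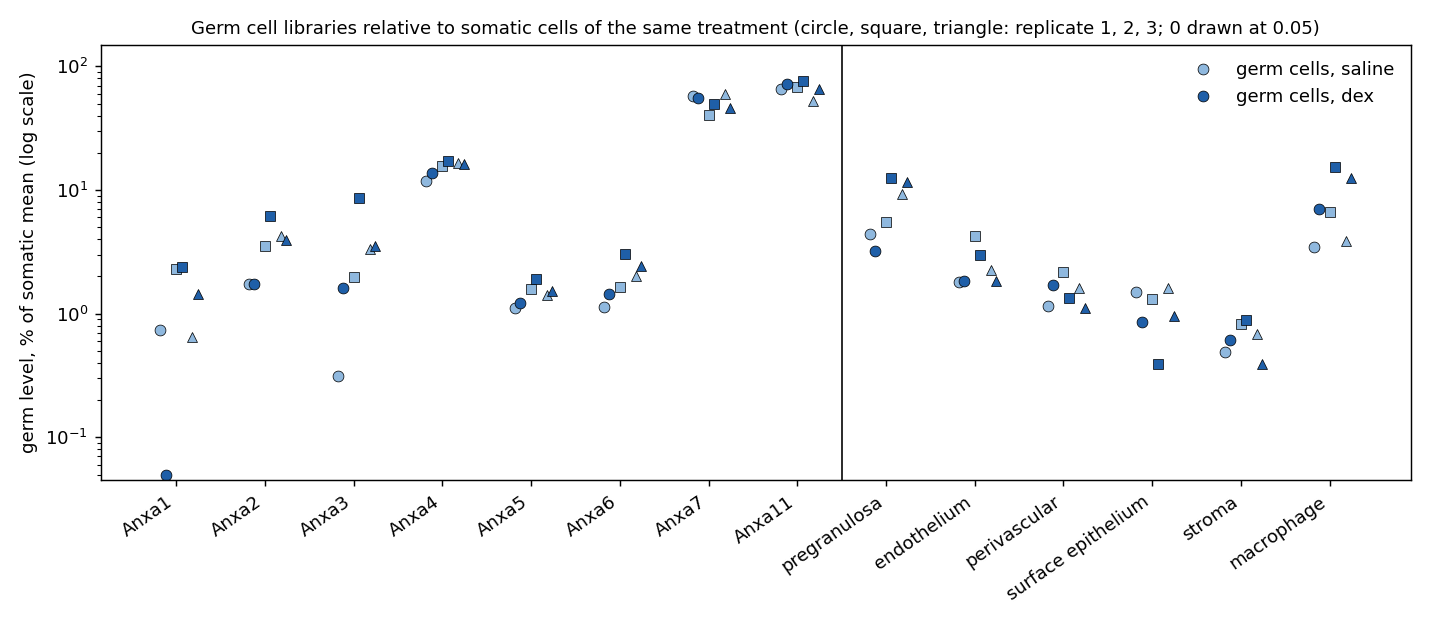
Germ cell level as a percent of the somatic mean under the same treatment (vertical log axis) for each annexin and, right of the line, for the median gene of 6 somatic marker lists, with 1 point per germ cell library. Anxa7 and Anxa11 lie between 40.1% and 76.6%, Anxa4 lies above all marker medians of the same library at 11.8% to 17.3%, the other 5 annexins lie lower, and the 1 library with no Anxa1 count is drawn at 0.05.

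The second comparison asked how dex exposure changed the annexins in somatic cells. Anxa1 and Anxa2 rose, by 1.38-fold and 1.23-fold, and no member fell past the threshold. Among all genes tested, 4.81% were called higher and 3.36% called lower, against 2 of 8 and 0 of 8 members. The dex and saline libraries did not overlap for 4 of 8 members, 2 above and 2 below saline, where 25.4% of all genes tested did not overlap. The median log2 fold change of the 8 members was -0.03, beside 0.000142 over all genes tested.

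Anxa1 read 25.0, 25.2 and 22.9 CPM with dex and 19.7, 16.0 and 17.2 CPM with saline. Every dex library was above every saline library, and the means were 24.4 ± 1.26 and 17.6 ± 1.89 CPM (SD, n = 3). The log2 fold change was 0.46 (SE 0.12, 95% interval 0.21 to 0.71, adjusted p = 0.0247, edgeR). The call depended on single libraries, since the adjusted p was 0.0716 without dex replicate 1, 0.0973 without dex replicate 2, 0.130 without saline replicate 2 and 0.0984 without saline replicate 3. It was 0.297 when all 12 libraries shared 1 estimate of the spread.

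Anxa2 read 406, 433 and 502 CPM with dex and 339, 348 and 397 CPM with saline. The groups did not overlap, although the lowest dex library and the highest saline library were close, and the means were 447 ± 49.7 and 361 ± 31.5 CPM (SD, n = 3). The log2 fold change was 0.30 (SE 0.09, 95% interval 0.12 to 0.49, adjusted p = 0.0472, edgeR). The adjusted p rose to 0.107 without dex replicate 2, 0.0870 without dex replicate 3, 0.197 without saline replicate 1 and 0.169 without saline replicate 2, and to 0.596 with all 12 libraries in 1 fit. Exonic bases of Anxa2 overlap those of Gm16144 on the opposite strand, and reads of the pair cannot be told apart if strand was not used in counting.

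Anxa7 and Anxa3 had lower values with dex and did not pass the threshold. Anxa7 read 48.1, 46.9 and 52.5 CPM with dex and 59.8, 53.0 and 62.7 CPM with saline, a log2 fold change of -0.26 (SE 0.08, adjusted p = 0.0754, edgeR). The groups did not overlap, and the highest dex library lay just under the lowest saline library. Anxa7 did pass without dex replicate 3, at an adjusted p of 0.0300, and without a filter on low counts, at 0.0424, both with edgeR.

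Anxa3 read 15.2, 17.2 and 17.4 CPM with dex and 17.9, 20.8 and 23.0 CPM with saline. The log2 fold change was -0.31 (SE 0.13, adjusted p = 0.181, edgeR), and here too the libraries only just failed to meet. Anxa3 shares exonic bases with Gm42603 on the same strand, so its count is uncertain to that extent.

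**Figure D3:**
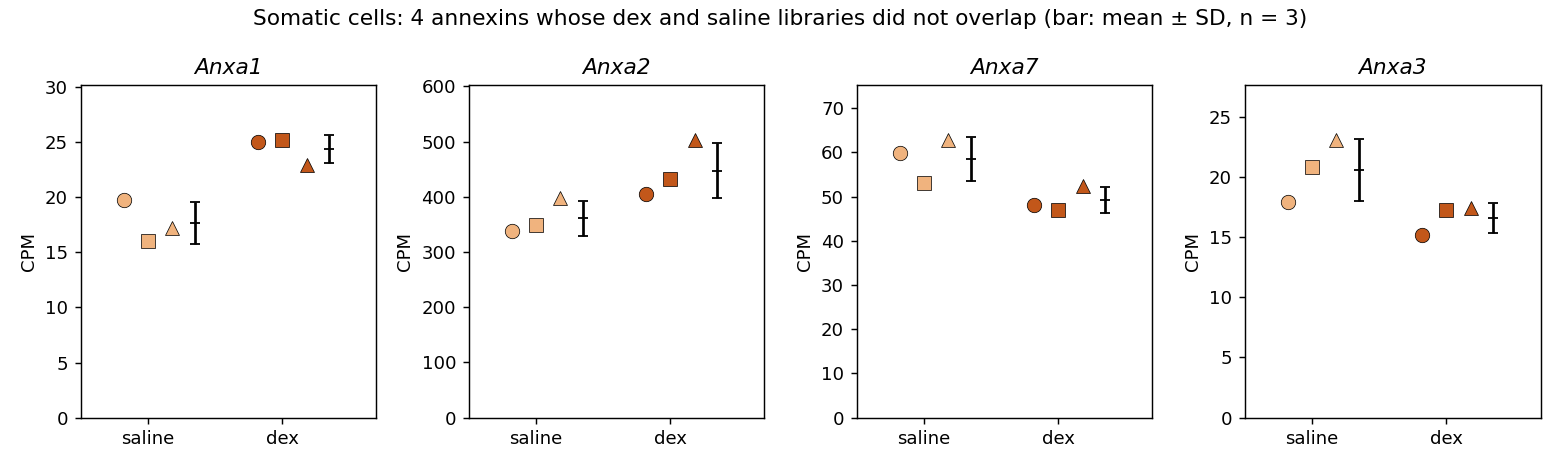
CPM in the 3 saline and 3 dex somatic libraries for Anxa1, Anxa2, Anxa7 and Anxa3, on axes that start at 0, with the mean ± SD beside the points. The dex points lie above all saline points for Anxa1 and Anxa2 and below all saline points for Anxa7 and Anxa3, of which Anxa1 and Anxa2 passed the test.

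The other 4 members overlapped between dex and saline in somatic cells. Anxa5 read 226, 253 and 202 CPM with dex against 206, 197 and 211 CPM with saline, a log2 fold change of 0.15 (95% interval -0.03 to 0.32, adjusted p = 0.332, edgeR). Anxa6, the most abundant member, read 460, 463 and 444 CPM against 463, 437 and 475 CPM, a log2 fold change of -0.01 (95% interval -0.15 to 0.12, adjusted p = 0.935, edgeR). Of the 8 intervals that of Anxa6 was the narrowest.

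Anxa4 read 26.7, 22.1 and 30.0 CPM with dex against 26.8, 25.8 and 29.6 CPM with saline, a log2 fold change of -0.07 (95% interval -0.33 to 0.19, adjusted p = 0.800, edgeR). Anxa11 read 9.62, 8.80 and 8.22 CPM against 8.25, 9.43 and 9.72 CPM, a log2 fold change of -0.05 (95% interval -0.38 to 0.29, adjusted p = 0.908, edgeR). Both genes share exonic bases with a transcript on the opposite strand, Gm44036 for Anxa4 and Anxa11os for Anxa11.

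Blood and other cell type markers moved in the same somatic libraries. The 10 macrophage markers summed to between 65.5 and 156 CPM with dex and to between 219 and 289 CPM with saline, and 6 of them fell, among them Csf1r, Adgre1 and Cx3cr1. The 6 granulocyte and monocyte markers summed to between 27.4 and 50.5 CPM with dex and to between 9.54 and 24.8 CPM with saline, and S100a8 and S100a9 rose. Most of that sum was S100a8 and S100a9. Of the rest of the list, Mpo averaged higher with dex, and Ccr2 (1.91 CPM with saline, 0.860 with dex), Ly6c2 and Elane averaged lower. None of these was called. Endothelial markers summed to between 313 and 349 CPM with dex and 349 and 412 CPM with saline (1 of 8 rose and 3 fell). The summed ranges overlapped between dex and saline for pregranulosa cells (1 of 8 fell), stroma (1 of 8 rose), surface epithelium (0 of 8 called), perivascular cells (1 of 7 rose) and erythroid cells (0 of 6 called). The part of these shifts in the Anxa1 and Anxa2 results was not tested.

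In germ cells no annexin passed the test for dex. The filter on low counts kept 6 of 8 members and left out Anxa1 and Anxa3. None of the 6 was called, where 0.208% of all genes tested were called, and none of the 6 had an unadjusted p under 0.05. No member had dex and saline libraries that did not overlap, against 17.4% of all genes tested. DESeq2 called 0 members as well, and without the filter edgeR called Anxa2 (adjusted p = 0.0193).

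Anxa2 read 7.71, 27.3 and 17.7 CPM in germ cells with dex and 6.28, 12.7 and 15.4 CPM with saline, a log2 fold change of 0.62 (95% interval -0.21 to 1.46, adjusted p = 0.568, edgeR). Anxa6 read 6.57, 13.9 and 11.2 CPM with dex and 5.18, 7.53 and 9.33 CPM with saline, a log2 fold change of 0.52 (95% interval -0.07 to 1.12, adjusted p = 0.498, edgeR). For both, dex replicate 2 was highest and saline replicate 1 lowest of the 6. The median pregranulosa marker stood at 3.22%, 12.6% and 11.6% of its somatic mean in the dex libraries and at 4.43%, 5.54% and 9.37% in the saline libraries. Macrophage markers summed to 51.2, 46.5 and 37.7 CPM in the germ cell libraries with dex and to 44.8, 35.3 and 41.5 CPM with saline, which overlap, and none was called. Most of that sum was Mrc1, which averaged 33.9 CPM with dex and 31.5 CPM with saline. The median macrophage marker stood at 7.00%, 15.4% and 12.4% of its somatic mean with dex. With saline it stood at 3.49%, 6.66% and 3.91%, which does not overlap. The somatic means of these markers were themselves lower with dex. The part of somatic signal in the germ cell values was not tested.

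Anxa7, the leading germ cell annexin with saline, read 27.4, 24.3 and 22.6 CPM with dex and 33.6, 23.5 and 34.8 CPM with saline, a log2 fold change of -0.30 (95% interval -0.62 to 0.02, adjusted p = 0.457, edgeR). Anxa11 read 6.37, 6.80 and 5.84 CPM with dex and 6.02, 6.19 and 4.81 CPM with saline, a log2 fold change of 0.17 (adjusted p = 0.770, edgeR). Both groups of libraries overlapped for each gene. Anxa5 at 0.32 (adjusted p = 0.674) and Anxa4 at 0.05 (adjusted p = 0.958, edgeR) also had intervals that spanned 0.

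**Figure D4:**
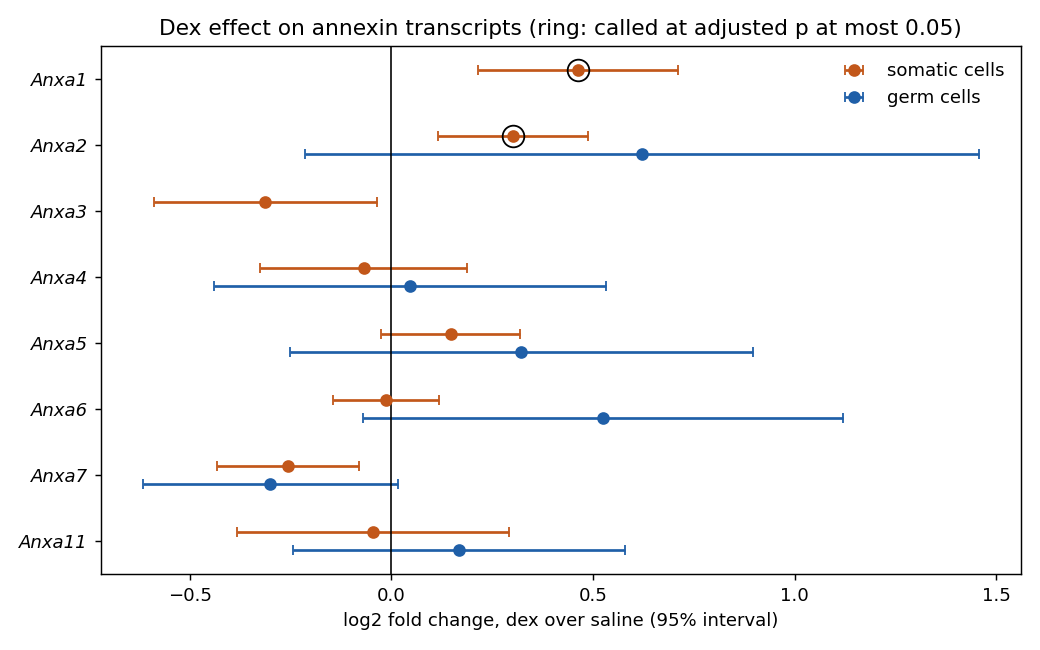
Log2 fold change of dex over saline on the horizontal axis with its 95% interval, for each annexin in somatic cells (orange) and in germ cells (blue), with a ring around the changes that passed the test. The somatic values of Anxa1 (0.46) and Anxa2 (0.30) are ringed, every germ cell interval spans 0, and Anxa1 and Anxa3 have no germ cell value because they did not pass the filter on low counts.

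An effect called in somatic cells and not in germ cells is not by itself a difference between the cell types, so the difference of the 2 dex effects was tested over all 12 libraries. It was called for 0 of 8 members, where 1.62% of all genes tested were called, and 0 of 8 had an unadjusted p under 0.05 with edgeR. Anxa1 and Anxa3 entered this test through their somatic libraries, having failed the filter in germ cells, so the count bears on the other 6 members. DESeq2 also called none of the members. For Anxa2 the germ cell effect exceeded the somatic one by 0.30 on the log2 scale (95% interval -0.55 to 1.15, adjusted p = 0.782, edgeR), and for Anxa1 by 0.04 (95% interval -1.13 to 1.21, adjusted p = 1.00). These intervals are wide, and for Anxa1 the germ cell counts set that width.

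For Anxa6 the germ cell effect was higher by 0.52 (95% interval -0.01 to 1.05, adjusted p = 0.332, edgeR). The value of 1.23 for Anxa3 (95% interval -0.08 to 2.53, adjusted p = 0.360, edgeR) rests on 1 to 22 germ cell counts a library and ranged from 0.45, without germ cell dex replicate 2, to 1.92 when 1 library was left out. Anxa6 was called, at an adjusted p of 0.0422, without germ cell dex replicate 1, the dex library with the least Anxa6, and at 0.0130 without the filter on low counts (edgeR). The other 4 members had differences between -0.06 and 0.20.

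The genes that work with annexins were followed as 4 lists with 46 genes in all. In somatic cells 38 were tested, of which 3 rose with dex and 1 fell, beside 4.81% called higher and 3.36% called lower over all genes tested, and nothing is read from these counts. Of 10 binding partners, 9 were tested and 1 rose: S100a6, a calcium-binding partner of several annexins, averaged 35.2 ± 1.87 CPM with saline and 45.2 ± 4.61 with dex (SD, n = 3), which is 0.36 higher on the log2 scale (adjusted p = 0.0345, edgeR). S100a10, the partner of annexin A2, named here after its values were seen, read 107 ± 3.08 CPM with saline and 135 ± 24.5 CPM with dex, with an adjusted p of 0.0634.

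Of 13 genes of the annexin A1 axis, 10 were tested and 2 rose. Pla2g4a, the cytosolic phospholipase A2 that releases arachidonic acid, went from 46.1 ± 3.06 to 60.2 ± 5.36 CPM (log2 fold change 0.38, adjusted p = 0.0143, edgeR). Ptgs2, the inducible cyclooxygenase that makes prostaglandin precursors, went from 4.59 ± 1.15 to 10.2 ± 1.13 CPM (log2 fold change 1.15, adjusted p = 0.00375, edgeR). The formyl peptide receptor genes were at or under 1 CPM: Fpr1 averaged 0.647 CPM in somatic cells with saline and 0.196 CPM with dex, Fpr2 averaged 0.636 and 0.563 CPM, and Fpr3 and Fpr-rs3 had no count in any library.

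Of 14 genes of membrane repair and phosphatidylserine exposure, 13 were tested and 1 fell. Dysf, which encodes the membrane repair protein dysferlin, went from 12.54 ± 2.63 to 7.77 ± 0.678 CPM in somatic cells (log2 fold change -0.69, adjusted p = 0.0259, edgeR). In germ cells Dysf averaged 11.4 ± 1.62 CPM with saline and 14.0 ± 0.544 CPM with dex (log2 fold change 0.29, adjusted p = 0.489), and the dex effects differed between the cell types by 0.98 on the log2 scale (adjusted p = 0.0494, edgeR). Of the 46 genes, 39 were tested for this difference and 1, Dysf, was called, beside 1.62% of all genes tested. Nothing is read from that count. Of 9 genes of plasminogen activation, 6 were tested and none was called in somatic cells. In germ cells 32 of the 46 genes were tested and none was called.

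The remaining mouse annexins were scarce. Anxa9 read 2.20 to 3.10 CPM in somatic cells and 0.817 to 2.33 CPM in germ cells, and it was called in none of the 4 comparisons. Anxa8 stayed at or under 0.646 CPM in every library. Anxa13 had 1 to 8 counts in the somatic libraries and none in germ cells, where a count of 0 allows up to 0.201 CPM, and Anxa10 had 3 counts in 1 somatic library and none elsewhere.

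The genes whose pattern over the 12 libraries was most like each member were ranked by Pearson r of log2(CPM + 0.5) among 12278 genes. For Anxa1 they were Moxd1 (r = 0.999) and Gpr153 (r = 0.998), for Anxa2 Aldh2 (r = 0.999) and Slc37a4 (r = 0.998), and for Anxa3 Prr13 (r = 0.998) and Tgfb3 (r = 0.997). Anxa4 was most like Galk1 and Fam84b (both r = 0.998), Anxa5 like Emilin1 and Fstl1 (r = 0.9998 and 0.9997) and Anxa6 like Fads2 (r = 0.999) and Vwa5a (r = 0.999). Anxa7 had lower values, with Mrps15 (r = 0.983) and Tspan12 (r = 0.981), and so did Anxa11, with Tctn3 (r = 0.974) and Dera (r = 0.970). The 12 points fall into a germ cell and a somatic cluster, which sets these correlations, so they describe the shared split between the cell types.

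Promoter windows of RefSeq (GRCm38.p6, 250 bases before to 50 after each start) were matched for 6 of the 8 members, in 8 windows, and Anxa3 and Anxa6 had no entry. The sequence TATAAA on the sense strand within 40 bases before the start was found for Anxa1 and Anxa2, the genes called in somatic cells, and in 2.31% of the 32851 promoter windows. Searched anywhere in the window and on both strands, TATAAA was found for the same 2 members and in 13.6% of all windows. Both searches were made with the calls known, and those calls depended on single libraries. A link between the match and the calls was not tested. The 30 bases around it are shown because they set these genes apart among the matched members, with TATAAA in capitals. It lies 32 bases before the RefSeq start in Anxa1 (chr19:20390686-20390715, minus strand) and 17 bases before it in Anxa2 (chr9:69453654-69453683, plus strand). In both genes it lies inside the annotated gene, whose upstream end is at 20390944 for Anxa1 and at 69453620 for Anxa2.
Anxa1: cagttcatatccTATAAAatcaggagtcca
Anxa2: ggatggggcgggTATAAAagccccacccag
The glucocorticoid receptor motif ACANNNTGT, searched on both strands, was found in 1 of the 8 windows, in Anxa4, and in 6.85% of all windows. AGAACA, an extended form of 1 arm of that motif that can overlap it, also searched on both strands, was found in Anxa4 alone and in 19.0% of all windows. A match is a run of letters in a short window, and a missing match says only that the letters are not in that window.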

How the data were processed

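RNA of 12 sorted cell samples was sequenced. Per the submitters' processing notes, HISAT2 2.0.5, featureCounts 1.5.0-p3 and DESeq2 1.20.0 were used. The raw gene counts and the FPKM values were deposited by the authors as tables of the whole series, and the deposited FPKM values were used as given to compare levels between genes. Further deposited tables hold the authors' own pairwise comparisons and were not used. Whether counting used strand, and how reads with several matches were treated, is not given in the sources used here.

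Counts were tested with edgeR 4.0.16 in R 4.3.3 (filterByExpr, TMM factors, glmQLFit and glmQLFTest, two-sided) on every gene, with Benjamini-Hochberg adjustment over all genes tested and an adjusted p of at most 0.05. Each dex comparison was fitted on the 6 libraries of 1 cell type, germ against somatic cells on the saline libraries, and the difference of the dex effects on all 12. Replicates are described as biological replicates in the labels. Alternatives were DESeq2 1.42.0, RLE size factors, no filter on low counts, a replicate block, all 12 libraries in 1 fit and leaving out each library. The scripts were tested on simulated data. The 8 members, the marker lists and the related lists were chosen with earlier results of these data known. All members and other annexins are named, and a related gene is named where it was called and averaged at least 1 CPM in the comparison, with S100a10, the formyl peptide receptor genes and the germ cell values of Dysf added after their values were seen. The 2 genes most like each member by Pearson r were named among genes averaging at least 5 CPM.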

Additional observations from a re-analysis of the deposited data

How the results depend on the processing

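All 8 members were lower in germ cells than in somatic cells under every alternative run. In somatic cells the 2 members called with dex became 0 with all 12 libraries in 1 fit, ranged from 0 to 2 when 1 library was left out, and were 3 without the filter on low counts, 2 with DESeq2 and 2 with RLE size factors. Without dex replicate 3 the 2 called were Anxa1 and Anxa7, and Anxa2 was not called (adjusted p = 0.0870, edgeR). Germ cells went from 0 to 1 member without the filter (Anxa2, adjusted p = 0.0193). The difference of the dex effects went from 0 to 1 without the filter (Anxa6, adjusted p = 0.0130) and ranged from 0 to 1 when 1 library was left out.

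The labels give same-numbered replicates no shared source, so the numbers were not taken to pair the libraries. Over genes, same-numbered dex and saline libraries correlated in their deviations at 0.174, -0.038 and 0.042 in somatic cells and at 0.295, 0.05 and 0.106 in germ cells, and same-numbered germ and somatic libraries at 0.182, 0.089 and 0.16 with saline and 0.184, 0.1 and 0.19 with dex. Each library correlated best with its own number between germ and somatic cells, but not between dex and saline. With a replicate block, 3 members were called in somatic cells, the third being Anxa7 (adjusted p = 0.0451), and the counts of members called in the other comparisons were 0, 0 and 8.

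Reversals of sign occurred only for uncalled changes and only when 1 library was left out. Log2 values then ranged in somatic cells from -0.175 to 0.0284 for Anxa4, -0.0451 to 0.0100 for Anxa6 and -0.121 to 0.0079 for Anxa11, and in germ cells from -0.0879 to 0.135 for Anxa4. The difference of effects ranged from -0.68 to 0.86 for Anxa1, -0.14 to 0.66 for Anxa2, -0.027 to 0.221 for Anxa4 and -0.214 to 0.0606 for Anxa7. The cause was not tested.

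Genes called over the whole table numbered 1354 in somatic cells (803 with all 12 libraries in 1 fit, 754 to 1881 with 1 library left out), 35 in germ cells (420 without the filter, 159 with DESeq2, 64 with all 12 libraries, 17 to 81 with 1 library left out) and 314 for the difference (727 without the filter, 647 with DESeq2, 143 to 384 with 1 library left out). With 0 to 22 counts in a germ cell library, Anxa1 and Anxa3 were compared between treatments there only without the filter or in fits on other sets of libraries, and imprecisely (without the filter, log2 fold change 0.50, SE 0.93, and 0.94, SE 0.62).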
